A study of Mus musculus with 7 samples.

Results

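The genes described here make cholesterol, control how much of it a cell makes, or remove it. The rule that picks them names their known roles and no measured value: 20 enzymes of the synthesis pathway, 5 genes of sterol sensing and transport, and 5 genes of the LXR and efflux side. The genes were chosen with earlier results of these data known, so the choice is not independent of the data. The deposited table has 51912 genes, and all 30 were found in it. All 30 also passed the filter on low counts, which left 16504 genes tested.

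The data are poly(A) RNA-seq of islets from obese, diabetic db/db mice, which lack a working leptin receptor. The mice had received an adeno-associated virus (AAV) for adipsin, a secreted protease of the complement system (3 libraries), or for green fluorescent protein (GFP) as the control (4 libraries). Islets of both groups were taken after 4 weeks of vector and spent 12 hours in culture. The vectors' promoter and the age and sex of the mice are not stated, nor is it stated that each library is a separate mouse, so p-values measure the spread between these libraries, which may be technical. In each group, replicate 1 is described in the labels by the name of its treatment and the other replicates by a db number, which makes 2 libraries of the former style and 5 of the latter. What the difference in description stands for is not stated. Total counts ran from 29601707 to 43997400 per library, and the 30 genes together took 0.209% to 0.296% of them. As a check of the labels, counts of Cfd, which encodes adipsin, were 3965, 839 and 1481 with AAV-Adipsin against 1, 0, 0 and 0 with AAV-GFP, and it was the only gene edgeR called between the vectors. The islet hormone genes and their companions (Ins1, Ins2, Iapp, Gcg, Sst, Ppy) summed to between 171164 and 213274 CPM (counts per 1e+06 counts), so islet transcripts were present in all 7 libraries.

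Cholesterol is built from acetyl-CoA through mevalonate, the isoprenoid farnesyl diphosphate, squalene and lanosterol. When membranes of the endoplasmic reticulum are poor in sterol, SCAP carries the transcription factor SREBP2 to the Golgi, where it is cut and set free to switch on nearly all enzymes of the pathway. When sterol is plentiful, the INSIG proteins hold SCAP back. Oxysterols meanwhile activate the nuclear receptors LXR, which switch on cholesterol export. Beta cells depend on this balance, since excess free cholesterol impairs insulin granules.

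The promoters of these genes were examined for letters by which the pathway is known to be co-regulated. RefSeq windows on GRCm38.p6, from 250 bases before to 50 bases after a start site, were found for 25 of the 30 genes and searched on both strands. CCAAT, the box bound by NF-Y, was present for 21 of 25, against 41.1% of all 27025 genes with a window and 42.2% of those tested here. GGGCGG, bound by Sp1, was present for 22 of 25, against 38.2% of all genes and 65.9% of those tested. The sterol regulatory element, searched as TCACNCCAC, was present for 1 of 25, Hmgcs1, against 1.44% of all genes. The LXR element, searched as 2 copies of AGGTCA with 4 bases between them, was in 0 of 25 windows, against 0.0148% of all genes. A match is a run of letters and not a measured binding site, and the absence of a match says only that these letters are not in the window. The 250 bases before the start are shown 5′ to 3′ for Hsd17b7 and Mvd, whose transcripts had the largest differences between libraries below, for Hmgcs1, which holds the sterol regulatory element, and for Lbr, whose difference was close to 0. Capitals mark the 3 shorter motifs on either strand, so that ATTGG is CCAAT and CCGCCC is GGGCGG read on the other strand.
Hmgcs1 (chr13:119690101-119690350, plus strand): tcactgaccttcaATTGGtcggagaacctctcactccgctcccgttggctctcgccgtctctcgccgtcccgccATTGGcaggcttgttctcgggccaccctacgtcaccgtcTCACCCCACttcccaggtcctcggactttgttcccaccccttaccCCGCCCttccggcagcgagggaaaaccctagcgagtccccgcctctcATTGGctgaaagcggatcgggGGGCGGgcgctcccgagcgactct
Mvd (chr8:122443423-122443672, minus strand): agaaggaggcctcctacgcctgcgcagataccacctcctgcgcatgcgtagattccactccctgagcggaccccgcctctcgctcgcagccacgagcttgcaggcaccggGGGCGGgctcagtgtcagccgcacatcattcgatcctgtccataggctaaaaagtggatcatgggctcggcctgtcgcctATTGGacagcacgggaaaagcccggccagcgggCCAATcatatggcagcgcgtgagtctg
Hsd17b7 (chr1:169969206-169969455, minus strand): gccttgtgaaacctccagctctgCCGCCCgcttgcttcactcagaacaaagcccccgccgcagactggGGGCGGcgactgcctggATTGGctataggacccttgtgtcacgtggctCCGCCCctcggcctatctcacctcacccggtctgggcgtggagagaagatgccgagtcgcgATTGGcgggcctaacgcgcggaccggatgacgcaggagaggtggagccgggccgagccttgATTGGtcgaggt
Lbr (chr1:181842402-181842651, minus strand): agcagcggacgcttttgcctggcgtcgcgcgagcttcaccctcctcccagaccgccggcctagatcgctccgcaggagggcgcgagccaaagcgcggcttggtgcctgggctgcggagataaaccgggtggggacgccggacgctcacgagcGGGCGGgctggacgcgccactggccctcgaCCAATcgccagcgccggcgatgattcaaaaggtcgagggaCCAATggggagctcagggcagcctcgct
In the Hmgcs1 window the sterol regulatory element TCACCCCAC begins 137 bases before the start on the plus strand and ends 129 bases before it. Lbr also holds CCAAT, so this motif is not limited to the genes that differed. Of the genes lower in 2 libraries below, 12 of 13 with a window held CCAAT and 13 of 13 held GGGCGG, against 9 of 12 for each motif among the other genes with a window. The genes without a window, Fdps, Fdft1, Sqle, Stard4 and Abcg1, were all among those lower, so only that side of the comparison is incomplete. The NF-Y box was in 16 of 17 enzymes with a window, and the enzyme without it, Acat2, was among those lower. Among the genes not lower, those without this box were Scap, Nr1h3 and Abca1, none of them enzymes. For the NF-Y box the comparison thus follows the class of gene and does not link the box to being lower. The Sp1 motif was in 15 of 17 enzymes, and Pmvk and Ggps1, which lacked it, were not called lower.

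Levels per length show which steps were most abundant as messenger RNA. Per kilobase of merged exons, Insig1, whose protein holds SCAP back when sterol is plentiful, stood highest at 93.4 ± 20.1 CPM per kb (SD, n = 7), above 97.9% of the genes tested. Squalene epoxidase (Sqle), a rate-controlling enzyme, was at 51.1 ± 5.41 and HMG-CoA synthase (Hmgcs1), which makes the precursor of mevalonate, at 49.8 ± 14.9 CPM per kb (SD, n = 7 each). The difference in level between these 2 enzymes was smaller than the spread over libraries. Lanosterol demethylase (Cyp51), squalene synthase (Fdft1), phosphomevalonate kinase (Pmvk), the efflux pump Abca1, the master regulator Srebf2 and the C4-methyl sterol oxidase (Msmo1) followed, in that order, between 31.6 and 26.7 CPM per kb. Their SDs, from 1.95 for Pmvk to 8.22 for Cyp51, cover the steps between neighbours in this order. At the low end were the acyltransferase Soat1 at 3.05 ± 0.358, isopentenyl diphosphate isomerase (Idi1) at 3.00 ± 0.764, and the sterol C14 reductase Tm7sf2 at 2.11 ± 0.366 CPM per kb (SD, n = 7 each). Lbr, a nuclear envelope protein that can carry out the same C14 reduction, stood at 4.71 ± 0.214 CPM per kb, above Tm7sf2 by more than the spread of either. Merged exons include every annotated isoform, so a gene with a long rare isoform appears lower on this scale.

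**Figure D1:**
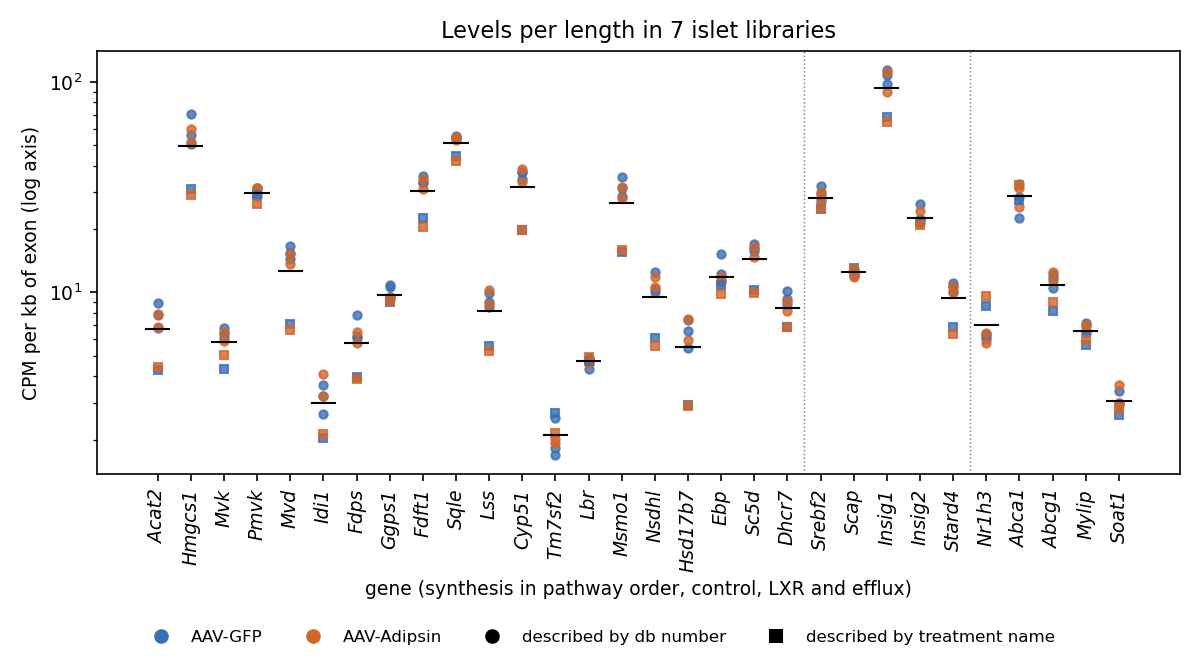
CPM per kb of merged exons (vertical log axis) of the 30 genes in pathway order, with 1 point per library, colours for the vector, squares for libraries described by a treatment name and circles for those described by a db number. The horizontal bars are means over 7 libraries, from 93.4 for Insig1 to 2.11 for Tm7sf2.

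No gene of the 30 passed the test between AAV-Adipsin and AAV-GFP islets. By edgeR's quasi-likelihood test, 0 of 30 passed an adjusted p of 0.05 in either direction, where 0.00606% of all genes tested did. At an unadjusted p under 0.05 there were also 0 of 30, against 1.16% of all genes, and DESeq2 and limma-voom gave 0 of 30 both adjusted and unadjusted. Of all genes, DESeq2 called 0.0242% adjusted and 1.3% unadjusted, and limma-voom 0% and 1.15%. The groups overlapped for all 30, whereas 2.73% of all genes tested had groups that did not overlap, 1.16% higher and 1.58% lower. The median log2 fold change, AAV-Adipsin over AAV-GFP, was -0.10 for the 20 synthesis enzymes, -0.05 for the 5 control genes and 0.08 for the 5 LXR and efflux genes, against -0.011 over all genes. The fitted value was below 0 for 18 of 20 enzymes and above 0 for 5 of 5 LXR and efflux genes, where 53.8% of all genes were below 0. The sign of the enzymes' and control genes' medians turned on 1 library. The LXR and efflux median fell as low as 0.02 without single libraries but stayed above 0. Without AAV-Adipsin replicate 1 the enzymes' median was 0.07, with 5 of 20 below 0, and that of the control genes 0.03, with 2 of 5 below 0. Without AAV-GFP replicate 2 or 4 the enzymes' median was -0.03 or -0.02, with 13 of 20 below 0 in each, and it was -0.23 with replicate 1 of AAV-GFP removed and -0.25 with replicate 2 of AAV-Adipsin removed. For the LXR and efflux genes the median was 0.03 without AAV-GFP replicate 1, 0.02 without AAV-Adipsin replicate 2 and 0.05 without AAV-GFP replicate 4, with 2, 2 and 0 of 5 below 0.

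The values behind this are shown for the enzymes that open and pace the pathway. Hmgcs1 was at 143, 322, 257 and 234 CPM in AAV-GFP replicates 1 to 4 and at 134, 274 and 237 CPM in AAV-Adipsin replicates 1 to 3. Replicate 1 was the lowest of each group, and the other libraries of both groups were intermingled. The log2 fold change was -0.15 (SE 0.31), with a 95% interval from -0.87 to 0.57. Sqle was at 247, 306, 300.4 and 299 CPM in AAV-GFP and at 234, 295 and 304 CPM in AAV-Adipsin, again with replicate 1 lowest in both, and its log2 fold change was -0.05 (SE 0.12). Ebp, the sterol isomerase, had the smallest p of the 30 genes, at 28.8 ± 4.56 CPM in AAV-GFP (SD, n = 4) and 25.2 ± 2.23 CPM in AAV-Adipsin (SD, n = 3). Its log2 fold change was -0.19 (SE 0.13), with an unadjusted edgeR p of 0.185. Among the enzymes the fitted values ran from this -0.19 to 0.12 for Idi1. Insig1, a sensitive SREBP2 target, was at 300.1 ± 63.0 and 274 ± 71.1 CPM in AAV-GFP and AAV-Adipsin (SD, n = 4 and 3). Abca1, the main LXR target, was at 288 ± 42.4 and 309 ± 39.8 CPM, with a log2 fold change of 0.10 (SE 0.14). The 5 control genes ran from -0.13 for Insig1 to -0.02 for Scap, and the 5 LXR and efflux genes from 0.04 for Mylip to 0.10 for Abca1 and Nr1h3.

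With description style as a term in the fit, the standard error by vector was smaller for each of the 30 genes except Abca1, at 0.14 in both. Hmgcs1 was then at -0.08 (SE 0.12), with a 95% interval from -0.35 to 0.18, and Cyp51 at -0.01 (SE 0.07), from -0.17 to 0.15. Mvd, the mevalonate diphosphate decarboxylase, was at -0.10 (SE 0.08), from -0.28 to 0.08, and Insig1 at -0.08 (SE 0.09), from -0.29 to 0.13. Srebf2 was at -0.01 (SE 0.07), from -0.18 to 0.16. No member passed in this fit either, 0 of 30 at an unadjusted p under 0.05, where 2.78% of all genes did. In the pair of libraries described by a treatment name, the 20 enzymes had a median difference of -0.04 in log2 CPM, AAV-Adipsin minus AAV-GFP, and among the libraries described by a db number it was -0.06. For the LXR and efflux genes the same medians were 0.13 and 0.06. A test of whether the vector effect differed between the styles called 0 of 30 genes by edgeR, 0 of 30 also at an unadjusted p under 0.05, where 0.818% of all genes were under that value. The treatment-named style has 1 library per vector, so the spread in this test comes from the other libraries, with 3 residual degrees of freedom, and 0 calls do not show that the effect was alike.

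**Figure D2:**
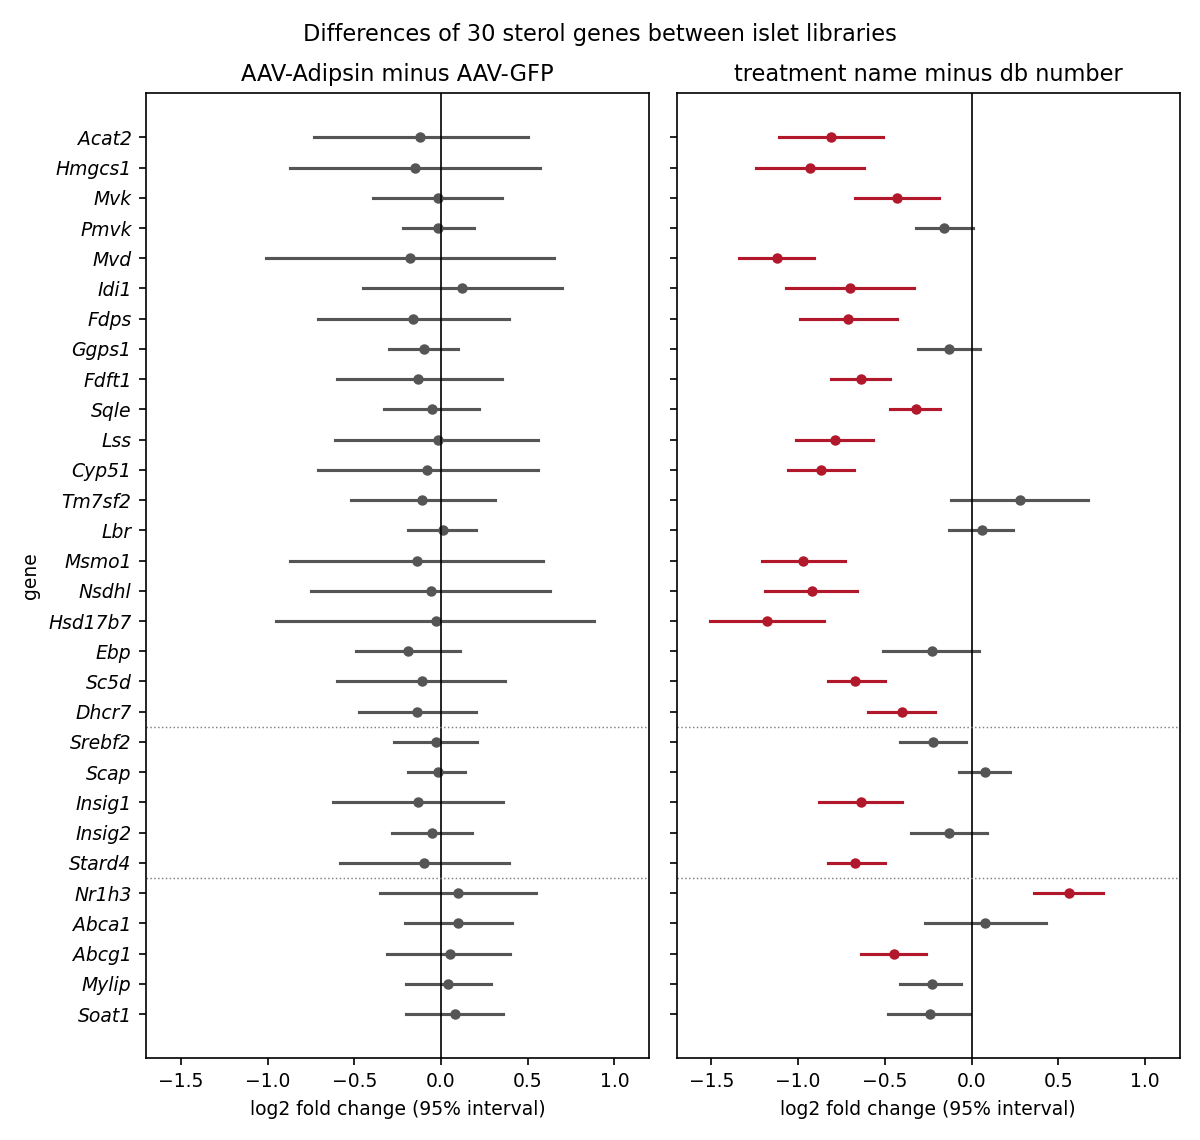
Log2 fold change (horizontal axis) with its 95% interval for each of the 30 genes, at left AAV-Adipsin minus AAV-GFP and at right libraries described by a treatment name minus those described by a db number. All 30 intervals at left include 0, and the 19 genes in red at right passed an adjusted p of 0.05 in edgeR.

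The same genes differed between libraries along the other division. Most synthesis enzymes were lower in the 2 libraries described by a treatment name than in the 5 described by a db number. The 20 enzymes summed to 1061 CPM in the AAV-GFP library described by a treatment name and 1019 CPM in its AAV-Adipsin counterpart, and to between 1517 and 1698 CPM in the other 5 libraries. With treatment in the model, edgeR called 15 of 20 enzymes lower in the treatment-named libraries and 0 higher, where 5.57% of all genes tested were called lower and 4.22% higher (9.79% in all). Both treatment-named libraries were below all 5 others for 17 of 20 enzymes, against 18.9% of all genes, and above all 5 for 0, against 18.7% (37.6% of all genes in either direction). The fitted difference was below 0 for 18 of 20 enzymes, against 50.8% of all genes. The median log2 difference of the 20 enzymes was -0.68, against -0.005 over all genes. It was -0.64 within AAV-GFP and -0.66 within AAV-Adipsin, so each treatment showed it. DESeq2 and limma-voom also called 15 of the 20, where they called 15.3% and 11.2% of all genes.

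The calls rest on both treatment-named libraries together. Over the 30 genes edgeR called 19, and without AAV-GFP replicate 1 it called 0, without AAV-Adipsin replicate 1 it called 1 (Mvd), and without AAV-Adipsin replicate 2 it called 12. The same 3 removals took the count over all genes from 1616 to 39, 55 and 346. The median over the 20 enzymes stayed at -0.67, -0.66 and -0.63. With 1 library on a side, that library is assumed to vary as the others do.

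**Figure D3:**
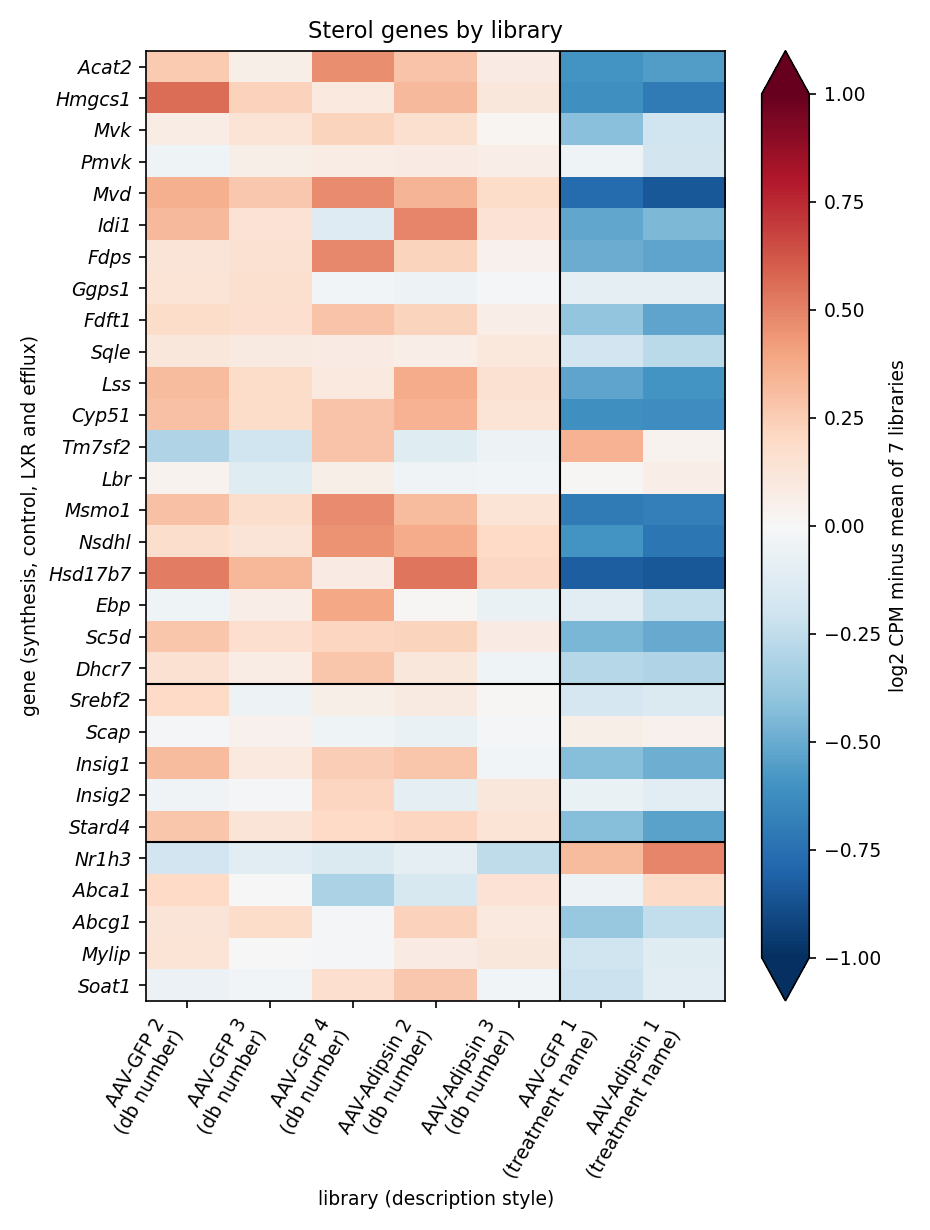
Log2 CPM of each gene minus its mean over 7 libraries (colour), with genes in rows (enzymes in pathway order, then control genes, then LXR and efflux genes) and libraries in columns. The 2 columns at right, described by a treatment name, are below the gene's mean for 18 of 20 enzymes in each.

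Along the pathway, enzymes called lower lay at its entry, middle and end. Acat2, the thiolase that joins acetyl-CoA units, was lower by style at a log2 difference of -0.81 (SE 0.13, adjusted p = 0.0127). It has a close neighbouring copy, Acat3, between which the counting could divide reads. Hmgcs1 (ENSMUSG00000093930, GRCm38 chr13:119690379-119708260, plus strand) was at -0.93 (SE 0.13, adjusted p = 0.00957), or 52.6% of its level in the db-numbered libraries. Mevalonate kinase (Mvk) differed by -0.43 and was called, while Pmvk, the next kinase, was at -0.16 with an interval from -0.32 to 0.01 and was not. Mvd (ENSMUSG00000006517, chr8:122433601-122443422, minus strand) was at 13.1 and 12.4 CPM in the treatment-named libraries. In the other libraries it was at 28.6, 26.9 and 31.0 CPM with AAV-GFP and at 28.2 and 25.4 CPM with AAV-Adipsin. The 2 sets of Mvd values were far apart, with a log2 difference of -1.12 (SE 0.09, adjusted p = 0.0011), the smallest p of the 30 genes. Idi1 differed by -0.70 and Fdps, which makes farnesyl diphosphate, by -0.71, both called. Of the Fdps exons, 26.7% lie under an exon of another gene on the same strand, so part of its reads may have been left out or shared. Ggps1 leads away from sterols to geranylgeranyl diphosphate, and it was at -0.13 (SE 0.08), with an interval from -0.31 to 0.05, and was not called.

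The sterol branch proper followed. Fdft1, the first enzyme committed to sterols, was at 95.1 and 86.7 CPM in the treatment-named libraries and between 131 and 152 CPM in the others, a log2 difference of -0.64 (SE 0.07, adjusted p = 0.00455). Of its exons 18.3% lie under an exon on the opposite strand, and whether the counting used strand is not given. Sqle differed by -0.32 (SE 0.06) and Lss, the lanosterol synthase, by -0.79 (SE 0.09), both called. Cyp51 was at 88.0 and 87.4 CPM against 148 to 171 CPM, at -0.87 (SE 0.08, adjusted p = 0.00213). Of the C14 reductases, Tm7sf2 was at 0.28 (SE 0.17), with an interval from -0.12 to 0.67, and Lbr at 0.06 (SE 0.08), from -0.13 to 0.24. Neither was called, and they were the 2 enzymes with a fitted value above 0. The C4 demethylation steps differed by -0.97 (SE 0.10) for Msmo1, -0.92 (SE 0.11) for Nsdhl and -1.18 (SE 0.14) for Hsd17b7, all called. Hsd17b7 (ENSMUSG00000026675, chr1:169949535-169969241, minus strand) had the largest difference of the 30 genes, at 14.9 and 14.7 CPM against 27.9 to 38.2 CPM, or 44.2% of its level in the db-numbered libraries. Ebp was at -0.23 and was not called, with an interval from -0.51 to 0.04. The last enzymes, lathosterol oxidase (Sc5d) at -0.67 and 7-dehydrocholesterol reductase (Dhcr7) at -0.40, were called lower.

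**Figure D4:**
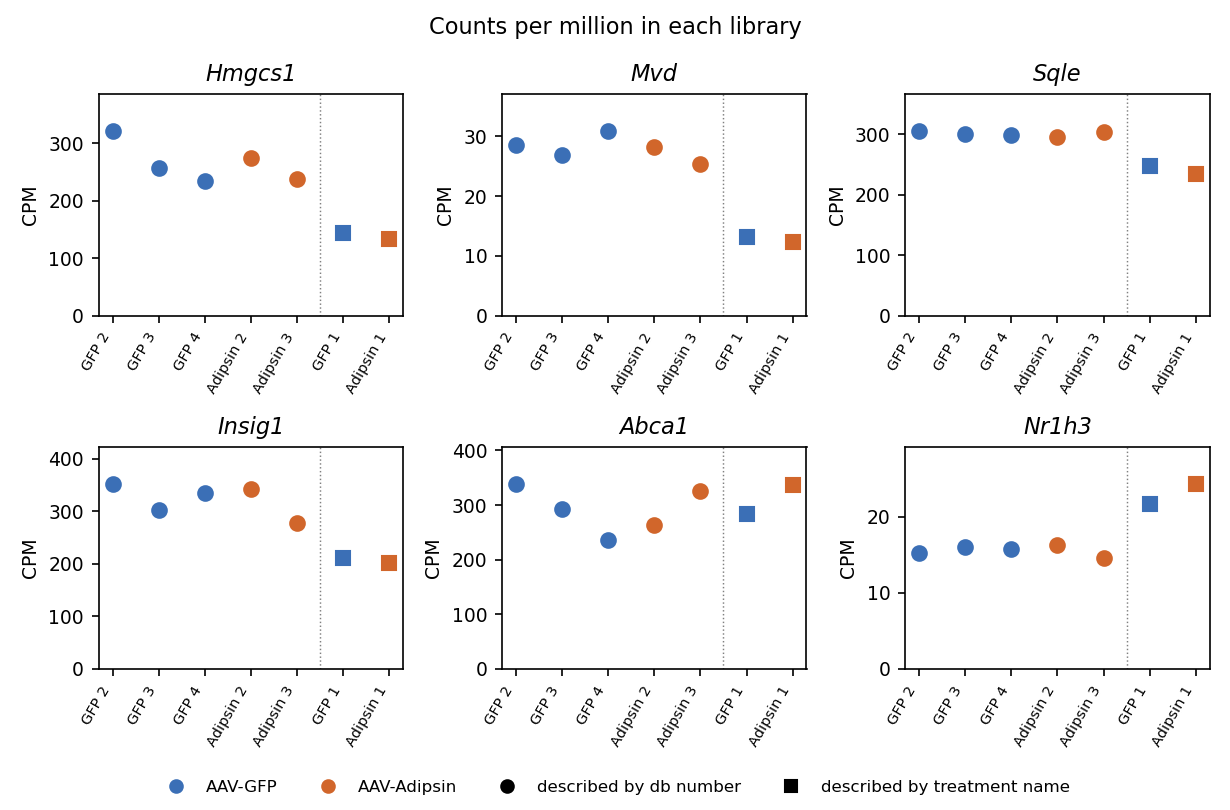
CPM (vertical axis, from 0) in each of 7 libraries for Hmgcs1, Mvd, Sqle, Insig1, Abca1 and Nr1h3, coloured by vector, with squares right of the dotted line for libraries described by a treatment name. Mvd is at 13.1 and 12.4 CPM in the squares and at 25.4 to 31.0 CPM in the circles, while Nr1h3 is highest in the squares, at 21.6 and 24.3 CPM.

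The control genes did not move as one. Insig1 (ENSMUSG00000045294, chr5:28071363-28078662, plus strand), an SREBP2 target that feeds back on SCAP, was at 210.5 and 201 CPM in the treatment-named libraries and between 278 and 352 CPM in the others. The 2 sets did not overlap, with a log2 difference of -0.64 (SE 0.10, adjusted p = 0.0129). Stard4, a carrier of cholesterol between membranes that is also an SREBP2 target, was at -0.67 (SE 0.07, adjusted p = 0.00329). Insig2, the INSIG gene known to be less dependent on SREBP2, was at -0.13 (SE 0.09), with an interval from -0.35 to 0.09. Srebf2, which encodes SREBP2, was at -0.22 (SE 0.08) and did not pass (adjusted p = 0.128), although both treatment-named libraries, at 179.6 and 182 CPM, were below the other 5, at 195 to 231 CPM. Scap was at 0.08 (SE 0.06), with an interval from -0.07 to 0.22. Messenger RNA does not report how much SREBP2 protein was cut and active.

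The LXR and efflux genes went in both directions. Nr1h3 (ENSMUSG00000002108, chr2:91184061-91202834, minus strand), the gene for LXR alpha, was the 1 gene of the 30 called higher in the treatment-named libraries, at 21.6 and 24.3 CPM against 14.5 to 16.2 CPM. Its log2 difference was 0.56 (SE 0.09, adjusted p = 0.0116). Abcg1, which exports cholesterol and is an LXR target, was lower, at 59.8 and 65.6 CPM against 76.8 to 91.5 CPM, a log2 difference of -0.45 (SE 0.08, adjusted p = 0.0189). Abca1, at 284 and 337 CPM against 236 to 339 CPM, overlapped between the styles, at 0.08 (SE 0.15). Mylip, the ubiquitin ligase that removes lipoprotein receptors, was at -0.23 (SE 0.08, adjusted p = 0.0946). Soat1, which stores cholesterol as esters, was at -0.24 (SE 0.10, adjusted p = 0.170). For both, the 2 treatment-named libraries were the lowest of the 7 but the difference did not pass.

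Among the 5 db-numbered libraries the 20 enzymes summed to between 1517 and 1698 CPM. Of all 7 libraries, AAV-GFP replicate 4 was the highest for 9 of 20 enzymes, where it was the highest for 25.2% of all genes. For Hmgcs1, Idi1, Lss and Hsd17b7, at 234, 9.32, 92.1 and 27.9 CPM, it was the lowest of the 5. Replicate 1 of AAV-Adipsin was the lowest of the 7 for 13 of 20 enzymes, and that of AAV-GFP for 5, against 14.8% and 14.9% of all genes.

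Of 45 other genes of sterol metabolism, 44 were tested, and edgeR called 0 by vector, 0 also at an unadjusted p under 0.05, against 0.00606% and 1.16% of all genes. DESeq2 and limma-voom called 0 as well, against 0.0242% and 0% of all genes. Their median log2 fold change was -0.01. By list, the nearest to the threshold were Arl4c, an LXR target, at 0.34 (SE 0.21), Fnta, a subunit of farnesyltransferase, at -0.14 (SE 0.09), Lipa, the lysosomal esterase, at 0.14 (SE 0.13), and Mbtps1, the site-1 protease that cuts SREBP, at 0.07 (SE 0.09). The groups did not overlap for 1 of the 44, Fnta, a share near the 2.73% of all genes. By description style, edgeR called 3 of 44 lower and 2 higher, closer to the 5.57% and 4.22% of all genes than the 20 enzymes were. Among the lower genes were the oxysterol binding protein Osbp at -0.29 (SE 0.06, adjusted p = 0.0287) and the oxysterol hydroxylase Cyp7b1 at -0.51 (SE 0.09, adjusted p = 0.0203). The 2 higher genes were Gramd1a, a sterol carrier at membrane contacts, at 0.39 (SE 0.07, adjusted p = 0.0170), and the acetyl-CoA synthetase Acss2 at 0.25 (SE 0.06, adjusted p = 0.0491). The 13 genes of other synthesis steps and of the isoprenoid branches had a median of 0.01. Srebf1, the gene for SREBP1, was at -0.18 (SE 0.07) and was not called (adjusted p = 0.125).

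In whole islets, fewer cells of a type and less RNA per cell cannot be told apart, so marker genes of other cells are given beside these results. Between the styles, the median log2 difference was -1.27 for acinar genes (12 of 12 below 0), -0.95 for duct genes (4 of 5), -0.68 for macrophage genes (13 of 14), -0.55 for mesenchymal genes (9 of 9) and -0.14 for endothelial genes (7 of 10). It was 0.21 for endocrine genes, with 4 of 6 above 0. Of these, 2 macrophage genes and 1 endocrine gene were called, and no marker of any list was at 0 in any library. The summed acinar level was 5269.6 and 3966 CPM in the treatment-named libraries. It was lower still in replicate 4 of AAV-GFP and replicate 3 of AAV-Adipsin, at 2735 and 3419 CPM. There the enzymes summed to 1643 and 1517 CPM. The remaining db-numbered libraries were at 9341 to 18137 CPM of acinar genes, with enzymes at 1575 to 1698 CPM. The summed macrophage level was 122 and 132 CPM in the treatment-named libraries, and 135 and 126 CPM in AAV-GFP replicates 2 and 3, whose enzymes summed to 1698 and 1575 CPM. The summed mesenchymal level was 138 and 156 CPM in the treatment-named libraries and 92.4 and 125 CPM in those same 2 AAV-GFP libraries. In the remaining db-numbered libraries the macrophage level was 156 to 354 CPM and the mesenchymal level 206 to 351 CPM. The summed duct level was 1315 and 1287 CPM in the treatment-named libraries and 1287 CPM in AAV-GFP replicate 2. It was 1414 to 1865 CPM in the remaining db-numbered libraries. The endocrine sum was 200563 and 213274 CPM in the treatment-named libraries and 171164 to 210729 CPM in the others. By vector, no marker of any list was called. There, 14 of 14 macrophage genes were above 0 with a median of 0.60, where 53.8% of all genes were below 0. The macrophage sum was led by AAV-Adipsin replicate 2 at 354 CPM. The other AAV-Adipsin libraries, at 132 and 156 CPM, lay within the 122 to 183 CPM of AAV-GFP. Also above 0 were 9 of 10 endothelial genes (median 0.21) and 8 of 9 mesenchymal genes (median 0.23). The median was -0.35 for acinar genes (0 of 12 above 0), -0.08 for duct genes and -0.06 for endocrine genes (1 of 5 and 1 of 6 above 0). The part of these cells in the difference of the enzymes between the styles was not tested. Nor was it tested for the small values by vector of the enzymes and of the LXR and efflux genes.

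**Figure D5:**
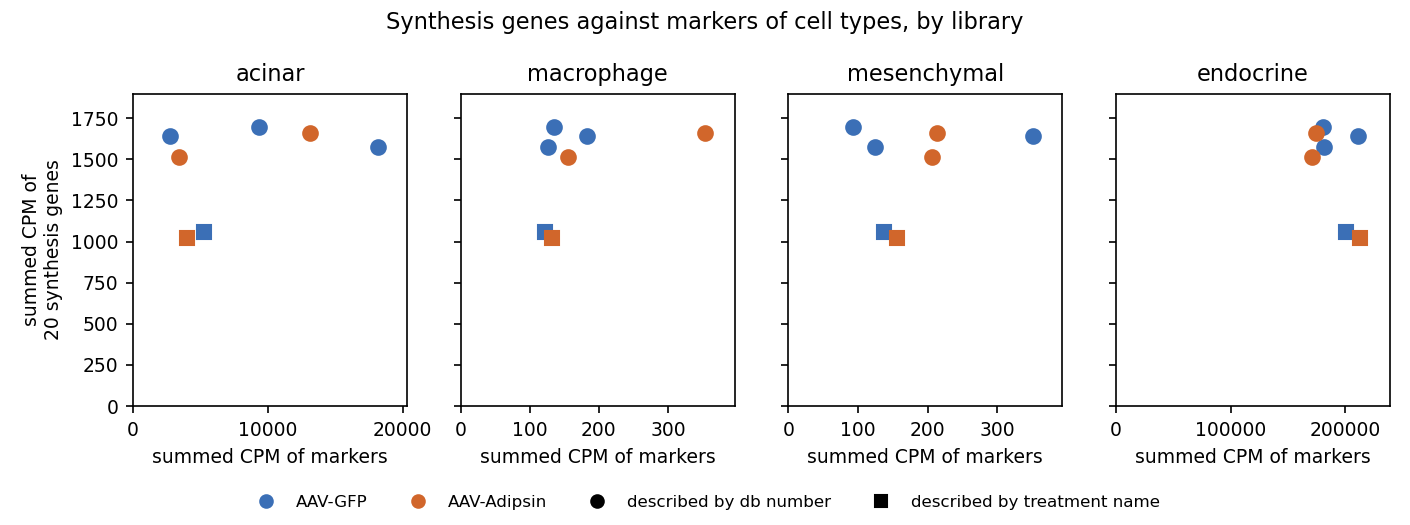
Summed CPM of the 20 synthesis enzymes (vertical axis, from 0) against summed CPM of marker genes (horizontal axes, from 0) for acinar, macrophage, mesenchymal and endocrine cells, with 1 point per library. The 2 squares, described by a treatment name, lie at 1061 and 1019 CPM on the vertical axis, and the 5 circles lie at 1517 CPM or above.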

How the data were processed

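The authors deposited whole-number counts for each gene in each library, with no normalisation. STAR and the build mm10 (GRCm38) are named in the submitters' processing notes, and a stranded poly(A) kit in the labels' protocols. How reads were counted, with which annotation and with or without strand, is not given in the sources. Symbols, positions and merged exons came from GENCODE mouse release 21 (GRCm38).

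Counts were tested in R 4.3.3 with edgeR 4.0.16: filterByExpr by group, TMM scaling, a robust quasi-likelihood fit of all 7 libraries and Benjamini-Hochberg adjustment over 16504 genes at 0.05. The terms were the vector, or the vector and description style for the comparison of styles. CPM are scaled by TMM library sizes. Log2 CPM carried a prior count of 2. Intervals of 95% use the degrees of freedom of the fit. The tests were tried on simulated data. Alternatives were DESeq2 1.42.0, limma-voom (limma 3.58.1), other scalings, no filter on low counts, description style as a batch, a replicate block and removal of libraries. The test of whether the vector effect differed between styles was added after the data were seen.

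The genes and lists were chosen with earlier results of these data known. All 30 are named, and of the other lists those with the smallest p. Some genes of the pathway are not reported here. No column or library was left out. No pair of libraries agreed within sampling noise, the closest being replicate 1 of each group, with a chi-square of 9.47 per degree of freedom. No molecular identifiers are named, so depth bounds counting error only. The floor of 3 counts is 0.0682 to 0.101 CPM, below every value of the 30 genes.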

Additional observations from a re-analysis of the deposited data

Results flagged for a closer look

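In the AAV-GFP group of 4 libraries, 1 library stood apart from the other 3 for 4 of the 30 genes, by the gap to its nearest neighbour divided by the range. Chance flags about 1 in 20 groups, and the 30 genes share their libraries. AAV-GFP replicate 1, described by a treatment name, was apart for Sqle (gap over range 0.886, at 247 CPM against 299 to 306), Cyp51 (0.841, at 88.0 CPM against 153 to 165) and Nr1h3 (0.874, at 21.6 CPM against 15.2 to 16.0). AAV-GFP replicate 4 was apart for Insig2 (0.849, at 91.3 CPM against 74.9 to 77.4).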

How the results depend on the processing

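For the vector, 0 of the 30 genes and 0 of the 44 other genes were called by edgeR under all alternatives, limma-voom, DESeq2 and removal of each library included. The count over all genes, 1, was 4 with DESeq2 and 0 with limma-voom, without a filter on low counts and without the 2 treatment-named libraries, and ran from 0 to 1 without single libraries. Replicate numbers did not pair the libraries: the correlation of deviations was 0.66 for number 1, -0.01 for 2 and 0.01 for 3, and only number 1 correlated best with itself. The replicate block left the calls at 0 of 30 genes and 1 of all genes. By style, the 19 calls ran from 0 to 20 without single libraries, and the 1616 over all genes from 39 to 4348, against 2528 with DESeq2. Of the 44 other genes, 5 were called by style in edgeR, 6 in limma-voom and 9 in DESeq2. The cause of these changes was not tested, beyond fewer libraries in a fit.

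Small fitted values by vector changed sign. With the replicate block Acat2 was at 0.03, Mvk at 0.07, Msmo1 at 0.00, Nsdhl at 0.06 and Insig2 at 0.02. With style as a batch Mvk was at 0.03, Lss at 0.02 and Hsd17b7 at 0.04, and Mvk was at 0.01 with limma-voom. Without both treatment-named libraries Pmvk was at 0.06, Sqle at 0.00, Lss at 0.07, Lbr at -0.01, Nsdhl at 0.05, Hsd17b7 at 0.07 and Nr1h3 at -0.01. Without single libraries the values ran from -0.29 to 0.09 for Acat2, -0.36 to 0.10 for Hmgcs1, -0.13 to 0.07 for Mvk, -0.06 to 0.06 for Pmvk, -0.39 to 0.11 for Mvd, -0.10 to 0.34 for Idi1, -0.31 to 0.03 for Fdps, -0.27 to 0.07 for Fdft1, -0.11 to 0.06 for Sqle, -0.22 to 0.21 for Lss and -0.27 to 0.16 for Cyp51. They ran from -0.20 to 0.02 for Tm7sf2, -0.03 to 0.03 for Lbr, -0.33 to 0.10 for Msmo1, -0.26 to 0.21 for Nsdhl, -0.32 to 0.27 for Hsd17b7, -0.25 to 0.07 for Sc5d, -0.08 to 0.05 for Srebf2, -0.05 to 0.01 for Scap, -0.32 to 0.05 for Insig1, -0.11 to 0.02 for Insig2 and -0.23 to 0.10 for Stard4. They ran from -0.16 to 0.25 for Nr1h3, -0.05 to 0.17 for Abcg1, 0.00 to 0.11 for Mylip and -0.03 to 0.16 for Soat1. By style, Abca1 ran from -0.02 to 0.19.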
